A study of Homo sapiens with 9 samples.

Results

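Signals of SK-N-AS cells with the RE-EX1 construct, labelled 24 and 48 h, were compared with those of UNTREATED SK-N-AS cells at the same hours. SK-N-AS is an established human neuroblastoma line, and RE-EX1 carries full-length human NRSF. The comparison uses 4 of the 9 arrays of the series, 1 for RE-EX1 at 24 h, 1 for RE-EX1 at 48 h, 1 for UNTREATED at 24 h and 1 for UNTREATED at 48 h. The RE-EX1 and UNTREATED arrays at 0 h were set beside them to show how far both series lay apart before the time course, and they were not subtracted. HZ4 arrays, from cells given a truncated NRSF, are quoted side by side in a few places. UNTREATED cells received no construct, so delivery of a construct and its NRSF content cannot be told apart here. The series' design text speaks of triplicates in 3 batches, which the labels do not assign to arrays. Sources used here do not give the way of delivery, the promoter that drives NRSF, or whether an array holds 1 culture or several pooled ones. Probe sets were kept when their signal was 100 or more on at least 2 of the 4 arrays, which held for 16372 of 54613 non-control probe sets. Of these, 13453 reached 100 on all 4 arrays, 216 were kept only through both RE-EX1 arrays and 202 only through both UNTREATED arrays. At the edge of this filter, 730 probe sets had a second highest signal between 100 and 110, and 825 that were left out had one between 90 and 100. The kept probe sets read 8704 genes, each through its brightest probe set.

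NRSF, also called REST, is a zinc finger repressor that binds a bipartite DNA element, RE1, beside neuronal genes. It recruits histone deacetylases through SIN3 at one end of the protein and the CoREST complex, with the demethylase LSD1, at the other. In cells that are not neurons it keeps neuronal genes silent, and in neuroblastoma its level is tied to how far the cells have differentiated. A gain of full-length NRSF is therefore usually read through RE1 genes, its corepressors and the neuronal programme.

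Promoters from RefSeq (GRCh38.p14, 250 bases before to 50 after each start) were searched on both strands for the left part of RE1, TTCAGCACC, its right part, GGACAGC, an interferon element, GAAANNGAA, and a kB element, GGGNNNTTCC, the form of site that NF-kB binds. The kB search was added after the values were seen. The windows below are shown because CELSR3 was the RE1 target gene whose promoter held the left part, and because CXCL2, IL6, NFKB1 and NFKBIZ are members of the NF-kB list, described further on, that share kB letters but differ in signal. Capitals mark the matched letters, and each window ends before the start of the transcript. They lie at chr3:48663017-48663131 on the minus strand, chr4:74099236-74099295 on the minus strand, chr7:22727105-22727164, chr4:102501289-102501348 and chr3:101827745-101827804, the last 3 on the plus strand.
CELSR3: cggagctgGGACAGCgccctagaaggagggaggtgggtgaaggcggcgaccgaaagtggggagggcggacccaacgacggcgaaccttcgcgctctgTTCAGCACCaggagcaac
CXCL2: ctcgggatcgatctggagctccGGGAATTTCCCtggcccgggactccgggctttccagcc
IL6: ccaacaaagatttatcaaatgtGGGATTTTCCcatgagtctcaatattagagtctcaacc
NFKB1: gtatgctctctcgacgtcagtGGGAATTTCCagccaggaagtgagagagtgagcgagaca
NFKBIZ: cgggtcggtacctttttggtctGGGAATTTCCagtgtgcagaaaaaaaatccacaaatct

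In CELSR3 the right part stood at −237 and the left part at −148 from the start, so they did not adjoin. The left part occurred in 0.403% of all 27305 promoters and in 0.247% of the 7296 kept genes with a promoter entry, and the right part in 6.11% and 6.28%. The kB letters occurred in 6.47% and 8.07%, and the interferon letters in 8.29% and 6.36%. In CXCL2 the kB letters matched on both strands at overlapping positions. A match is a string of letters, not a measured site.

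The 4 arrays were alike in median signal and in the share of probe sets that reached 100, less so in the ACTB ratio and the highest signal. Median signals lay between 30.96 and 34.28, and 28.2% to 29.1% of probe sets reached 100. The 3'/5' ratio for ACTB, a sign of RNA quality, was 3.63 and 2.49 for RE-EX1 at 24 and 48 h, against 2.45 and 3.47 for UNTREATED. The highest signal was 61079 on the UNTREATED 48 h array and between 32594 and 37840 on the other 3. Among markers of neuroblastoma states, 8 of 8 mesenchymal markers were kept. Of 6 adrenergic markers with a probe set, PHOX2A, GATA3 and ISL1 were kept, and HAND2, DBH and TH were not. Their summed signals were 20252 and 21732 with RE-EX1, against 21781 and 26017 in UNTREATED cells, for mesenchymal markers, and 2356 and 2161 against 1742 and 2056 for adrenergic markers. Most of the adrenergic sum was GATA3, at 1912 and 1781 against 1354 and 1627. A further kept GATA3 probe set had 163.9 and 196.7 against 183.9 and 281.4. PHOX2A had 72.16 and 95.69 against 100.8 and 114.9, and ISL1 273 and 189.4 against 233.4 and 253.6. VIM gave 10495 and 9354 against 11104 and 13402 of the mesenchymal sum. No marker of Schwann cells or melanocytes was kept (0 of 5, summed signal 51.34 to 144.5). PTPRC (75.11 to 173.5) of 5 blood markers and PECAM1 (101 to 171.1) of 6 endothelial markers were kept but dim. KRT8 and KRT18 were kept of 7 epithelial markers, with KRT18 between 3662 and 6076. The part of other cell types in the results was not tested, and in bulk RNA fewer cells of a type and less RNA per cell cannot be told apart.

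REST itself (chromosome 4, 56907900 to 56935844, GRCh38.p14) was not higher with RE-EX1 on the probe set that was kept. Its signals were 268.3 and 273.5 at 24 and 48 h with RE-EX1, against 444.7 and 260.3 in UNTREATED cells. The log2 difference, RE-EX1 minus UNTREATED, was −0.73 at 24 h and 0.07 at 48 h, beside −0.05 at 0 h. The HZ4 arrays read 323.1 and 341.6. The UNTREATED 24 h array was the highest of these, and the other 3 arrays of the comparison lay close together. The other 2 REST probe sets were below the filter. No source used here places the REST probes relative to the insert of RE-EX1, so these values do not check the construct.

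At 24 h 225 probe sets were 2-fold or more higher with RE-EX1 (1.37% of those kept) and 458 were lower (2.8%), together 4.17%. At 48 h 367 were higher (2.24%) and 267 lower (1.63%), together 3.87%. Signals below 50 were set to 50 before the log2 was taken. The 0 h arrays of the same 2 series differed to a similar degree, with 229 probe sets higher (1.4%) and 276 lower (1.69%), together 3.08%. The standard deviation of the log2 difference over probe sets was 0.42 at 0 h, 0.47 at 24 h and 0.45 at 48 h. With 1 array per group, no difference at a single hour has a replicate check. Counted as genes, 129 were higher (1.48%) and 130 lower (1.49%) at 24 h, together 2.98%. At 48 h 103 genes were higher (1.18%) and 124 lower (1.42%), together 2.61%, and at 0 h 112 were higher (1.29%) and 105 lower (1.21%), together 2.49%.

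**Figure D1:**
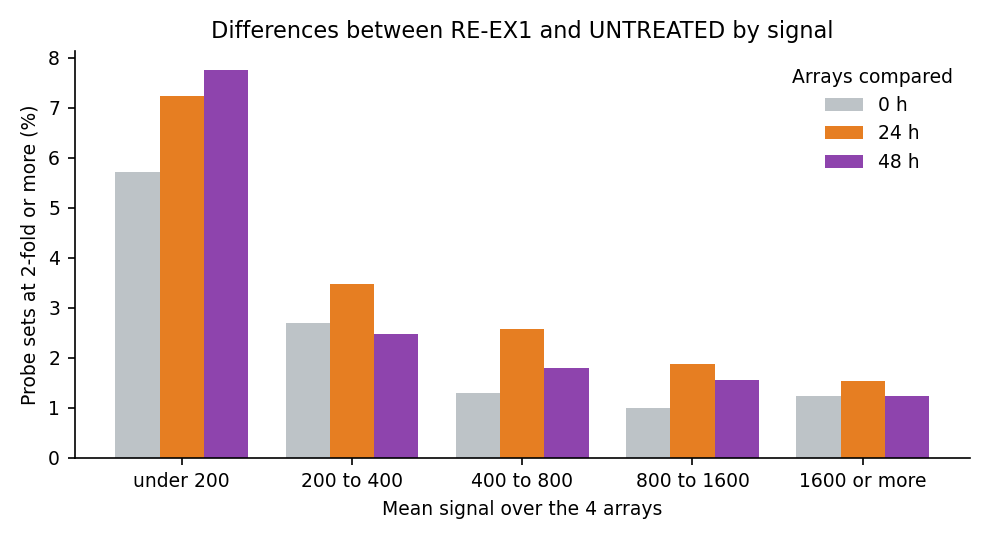
Share of kept probe sets that differed 2-fold or more between RE-EX1 and UNTREATED (vertical axis, percent) by mean signal over the 4 arrays of 24 and 48 h (horizontal axis), with 1 bar each for the 0, 24 and 48 h arrays. Under a signal of 200 the shares were 5.72%, 7.24% and 7.75%, and at 1600 or more they were 1.23%, 1.54% and 1.23%.

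Dim probe sets supplied most of these counts. Under a mean signal of 200, 7.24% of probe sets passed 2-fold at 24 h and 7.75% at 48 h, beside 5.72% at 0 h. At 1600 or more the shares were 1.54% and 1.23%, beside 1.23% at 0 h. The brightest probe sets leaned to one side at 48 h, where the median difference at 1600 or more was −0.14, against 0.04 under 200.

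The 24 and 48 h differences share no array, so the second hour is the one repeat that the design holds. In 1 direction at both hours, 26 probe sets were 2-fold or more higher (0.159%) and 32 lower (0.195%), together 0.354%, while 9 were higher at 24 h and lower at 48 h and 9 the other way. Across the 16372 probe sets the differences at 24 and 48 h correlated with r = 0.17, and 56.4% had the same sign. The difference at 0 h correlated with that at 24 h with r = 0.29 and with that at 48 h with r = 0.13. Probe sets are not independent replicates, and differences of dim probe sets vary more. Of the 26 higher probe sets, 6 (23.1%) were already 2-fold higher at 0 h, where 1.4% of all kept probe sets were. Of the 32 lower ones, 10 (31.2%) were 2-fold lower at 0 h, against 1.69% of all. The filter matters for these sets, since 19 of the 26 were kept only through the RE-EX1 arrays and 12 of the 32 only through the UNTREATED arrays.

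**Figure D2:**
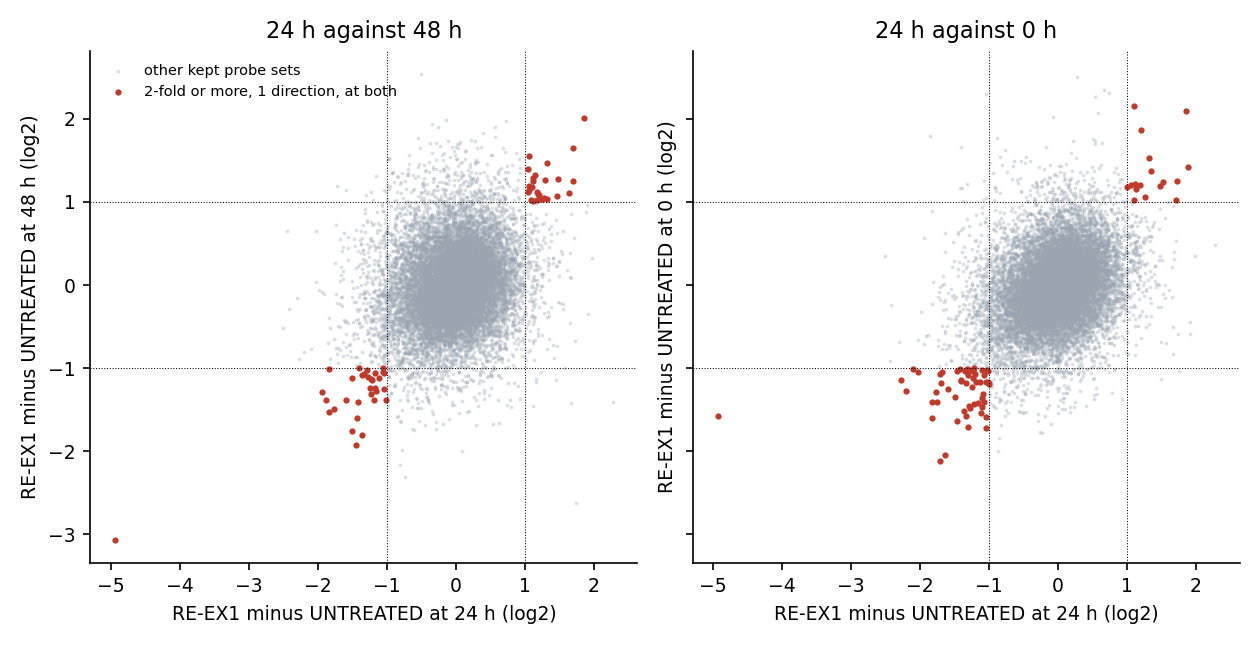
Log2 difference, RE-EX1 minus UNTREATED, of 16372 kept probe sets at 24 h (horizontal axes) against that at 48 h (left) and at 0 h (right). Dotted lines mark 2-fold, and red points passed 2-fold in 1 direction at both hours plotted, 58 of them on the left; the 24 h differences follow those of 0 h (r = 0.29) more closely than those of 48 h (r = 0.17).

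Read by the brightest probe set of each gene, 12 genes were higher at both hours (0.138% of 8704) and 6 were lower (0.0689%). RAB5C and RAB4B, small GTPases of early and recycling endosomes, and APPL1, an adaptor of early endosomes, were among the higher genes. RAB5C (chromosome 17, 42124979 to 42154989, GRCh38.p14) had signals of 495.3, 892.3 and 1286 at 0, 24 and 48 h with RE-EX1, against 244.2, 273.3 and 539.2 in UNTREATED cells. Both RE-EX1 arrays of 24 and 48 h lay above both UNTREATED ones, by 1.71 and 1.25 log2, and the 0 h arrays already differed by 1.02. RAB5C read 328.2, 672.5 and 577.2 on the HZ4 arrays of 0, 24 and 48 h, also above UNTREATED at each hour. Its probe set is marked for possible cross-hybridization and is uncertain, and a further RAB5C probe set differed by −0.01, 0.74 and 1.22 at 0, 24 and 48 h. APPL1 (uncertain) had 222.6, 237.2 and 237.9 with RE-EX1, against 206.7, 104.9 and 109.4 in UNTREATED cells. Its 0 h arrays differed by 0.11, and the differences of 1.18 and 1.12 came with lower signals on both later UNTREATED arrays. RAB4B had 143.9, 125.1 and 142.6 with RE-EX1, against 4.279, 5.628 and 51.36 in UNTREATED cells, with differences after flooring of 1.52, 1.32 and 1.47 at 0, 24 and 48 h.

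GORASP2, a stacking protein of the Golgi, was the brightest of the higher genes. Its signals were 1477, 1977 and 1864 at 0, 24 and 48 h with RE-EX1, against 925.3, 714.2 and 888.4 in UNTREATED cells, so that the RE-EX1 arrays were higher at each hour. The log2 differences were 0.67, 1.47 and 1.07. This probe set is uncertain, and the other 2 kept GORASP2 probe sets differed by 0.32 and 0.48 at 24 h and by 0.05 and −0.58 at 48 h. Averaged over its kept probe sets, GORASP2 stood at 0.76 and 0.18.

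CTF1, which encodes the IL6 family cytokine cardiotrophin 1, had the largest differences among the 12. It had 213, 181.1 and 202.1 at 0, 24 and 48 h with RE-EX1, against 25.34, 7.174 and 48.67 in UNTREATED cells. All 3 UNTREATED arrays were under the floor, so the signal with RE-EX1 was at least 3.62-fold higher at 24 h and at least 4.04-fold at 48 h, and at least 4.26-fold at 0 h. HZ4 arrays read 3.645, 56.74 and 20.32. The RE-EX1 series thus stood apart in CTF1 at each hour, 0 h included. TRIM52-AS1, an antisense RNA gene, and HROB, a factor of DNA recombination, also differed 2-fold at 0 h, by 1.19 and 1.21, beside 1.48 and 1.06 at 24 h and 1.27 and 1.14 at 48 h.

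The remaining higher genes were dim, with signals at 24 and 48 h of 100.7 to 142.6 with RE-EX1, against 22.79 to 68.45 in UNTREATED cells. SRRM3, a splicing regulator of neuronal microexons, differed by −0.31, 1.21 and 1.08 at 0, 24 and 48 h. DLG3, a synaptic scaffold protein, differed by −0.04, 1.04 and 1.39, and TNFRSF10A, a death receptor for TRAIL, by −0.12, 1.06 and 1.19. None of these 3 genes was higher at 0 h with RE-EX1. SRRM3 had 127.9, 127.3 and 105.6 with RE-EX1, against 158.9, 54.97 and 42.29 in UNTREATED cells. DLG3 had 104.9, 106.6 and 131.3 against 107.8, 51.78 and 47.19. In both, the differences came with lower signals on both later UNTREATED arrays. TNFRSF10A had 53.75, 142.6 and 114.1 against 58.36, 68.45 and 30.59. At 24 and 48 h the HZ4 arrays read 157.4 and 104.6 for SRRM3, 128.1 and 73.57 for DLG3 and 80.85 and 71.44 for TNFRSF10A. MACROH2A2, a histone variant, differed by 0.60, 1.05 and 1.12, and HOTTIP, a long noncoding RNA of the HOXA locus, by 0.83, 1.13 and 1.01. Each of the 5 had at least 1 UNTREATED array under the floor.

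S100A6, a calcium-binding protein, was the gene lower at both hours with the lowest limma p. At chromosome 1, 153534599 to 153535991 (GRCh38.p14), it read 2415, 1755 and 2497 at 0, 24 and 48 h with RE-EX1, against 5319, 4675 and 6642 in UNTREATED cells. The differences were −1.14, −1.41 and −1.41. RE-EX1 was lower at every hour, and the HZ4 arrays, at 5080, 4722 and 5604, read close to UNTREATED. RPL34, a protein of the large ribosomal subunit, had 7696, 5850 and 9615 with RE-EX1, against 15426, 13649 and 20980 in UNTREATED cells. Its differences of −1.0, −1.22 and −1.13 were likewise present at 0 h, and the 48 h value was −0.74 under quantile normalization. UQCRB, a subunit of respiratory complex III read by an uncertain probe set, had 1486, 1313 and 2015 with RE-EX1, against 3028, 3176 and 4326 in UNTREATED cells. The differences were −1.03, −1.27 and −1.10, and the other 2 kept UQCRB probe sets differed by 0.17 and −1.43 at 24 h and by 0.52 and −0.59 at 48 h. UQCRB did not pass 2-fold at both hours under quantile normalization or averaged over its kept probe sets. Its HZ4 arrays read 4419, 1056 and 1600 at 0, 24 and 48 h.

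SLC39A13, a zinc transporter of the Golgi, was lower at both later hours but not at 0 h. It had 100.5, 41.92 and 52.79 at 0, 24 and 48 h with RE-EX1, against 82.02, 141.6 and 177.8 in UNTREATED cells. The differences were 0.29, −1.50 and −1.75, and HZ4 read 126.3, 117.9 and 101.1. GAMT, an enzyme of creatine synthesis, had the same order, with differences of 0.43, −1.04 and −1.06 at signals of 116.9, 19.94 and 54.94 with RE-EX1, against 86.88, 102.7 and 114.2 in UNTREATED cells. RWDD3, a factor that promotes SUMO conjugation, differed by −1.52, −1.36 and −1.80. At the edge of the 2-fold limit, HOTTIP and DLG3 lay just inside among higher genes, with CDC42EP1 (1.91 and 0.96), KLHL21 (0.92 and 1.52) and PAQR4 (0.90 and 1.06) just outside. GAMT and UQCRB lay just inside among lower genes, with TFAP2B (−0.99 and −1.46), MEF2D (−0.99 and −0.98) and CAMTA1 (−1.08 and −0.98) just outside.

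**Figure D3:**
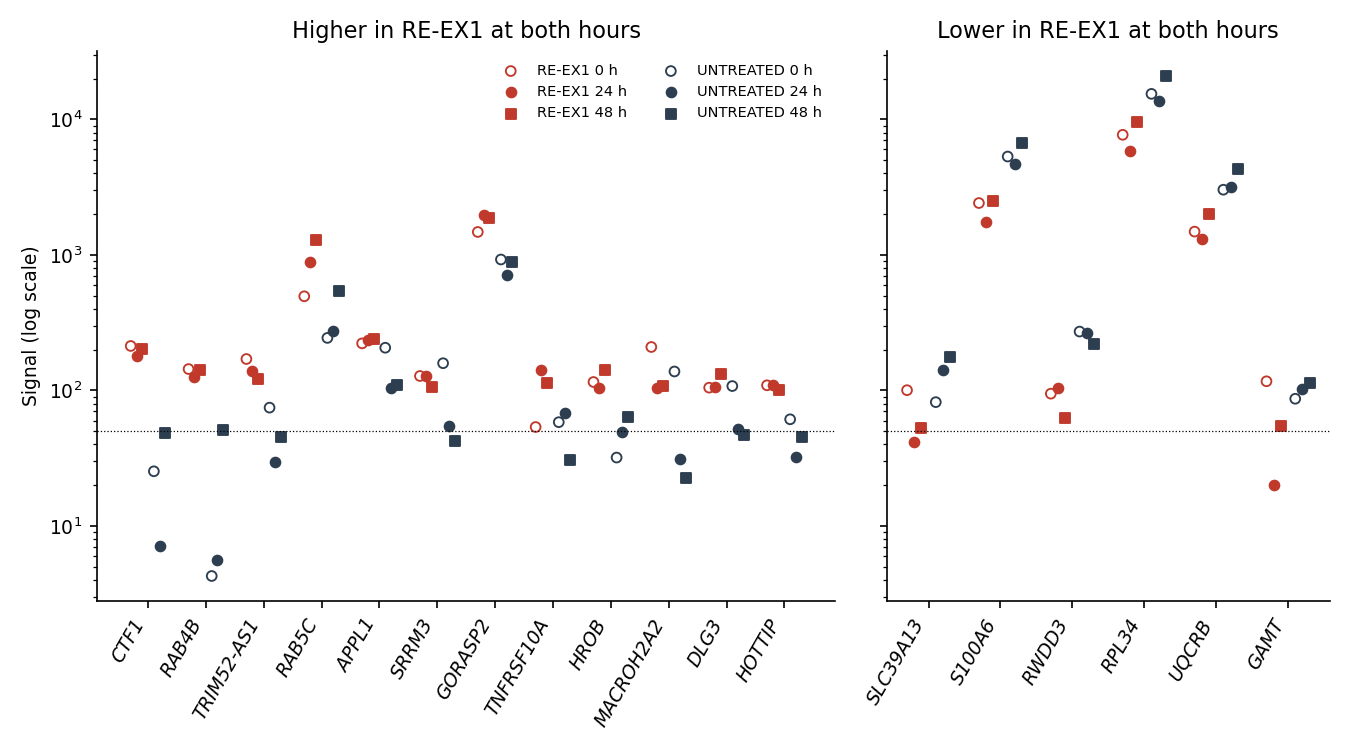
Signal on each RE-EX1 (red) and UNTREATED (dark) array at 0 h (open circles), 24 h (filled circles) and 48 h (squares) for the 12 genes higher and the 6 genes lower at both hours, on a log axis, with the floor of 50 dotted. RAB5C, GORASP2, S100A6, RPL34 and UQCRB are far above the floor, and for S100A6, RPL34 and UQCRB the open circles also lie apart, by −1.14, −1.0 and −1.03, less than the filled symbols.

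Other probe sets of the same genes rarely repeated a 2-fold difference. Of 26 genes higher at 24 h that had a further kept probe set, 17 had all further probe sets of the same sign, 1 had one at 2-fold and 7 had all of the opposite sign. For 54 genes lower at 24 h these numbers were 33, 9 and 9. At 48 h they were 14, 5 and 11 of 34 higher genes and 12, 2 and 7 of 25 lower genes. In addition, 25 probe sets that passed 2-fold at both hours were not the brightest of their gene. In 6 of these 25 the brightest probe set had the same sign at both hours, and in 0 of 25 it reached 2-fold at either hour. NAP1L1, a histone chaperone, is an example outside the naming rule, chosen after its values were seen: an uncertain probe set read 705.4 and 708.1 with RE-EX1, against 2609 and 1850 in UNTREATED cells, while its brightest probe set differed by 0.22 and −0.15. Kept probe sets without a gene name here are in the counts and are not described.

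The 2 hours were also fitted together with limma, as readings of 1 difference. Of 16372 probe sets, 72 were higher with RE-EX1 (0.44%) and 232 lower (1.42%) at an adjusted p under 0.05, together 1.86%. An unadjusted p under 0.05 was reached by 1908. As genes, 34 were higher (0.391%) and 115 lower (1.32%), together 1.71%. These are differences from UNTREATED cells at the same hours, not changes from 0 h. The fit has 1 residual degree of freedom per probe set, and its variances came from the trend over all probe sets, so a p-value measures a gene's size of difference against that trend more than its own repeat. With the 2 HZ4 arrays added to the fit 36 probe sets were called, and without the trend 2. Of the 72 higher probe sets, 5 (6.94%) were 2-fold higher at 0 h too, against 1.4% of all, and of the 232 lower ones 35 (15.1%) were 2-fold lower, against 1.69%.

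S100A6 was lower with RE-EX1 by 1.41 ± 0.20 log2 (± standard error, limma adjusted p = 5.6e-09, and 0.0011 with the HZ4 arrays in the fit). RAB5C was higher by 1.48 ± 0.21 (6.8e-09 and 0.014) and GORASP2 by 1.27 ± 0.20 (1.3e-07 and 0.0045). UQCRB was lower by 1.19 ± 0.20 (1.7e-06 and 0.0045) and RPL34 by 1.17 ± 0.25 (0.001 and 0.0095). Each of the 5 was chosen for having 1 sign at both hours, and its difference at 0 h had that sign too. RWDD3 was at −1.58 ± 0.35 (0.0021 and 0.053) and APPL1 at 1.15 ± 0.34 (0.039 and 0.13), so the calls of RWDD3 and APPL1 ended with the HZ4 arrays. No p is given for CTF1 and SLC39A13, which were kept only through the arrays where they are high and have floored signals.

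Other genes with the lowest p were lower with RE-EX1 without passing 2-fold at both hours. LSM4, a core protein of U6 snRNA complexes (uncertain), had 336.9 and 410.1 with RE-EX1, against 918.4 and 797 in UNTREATED cells. It was lower by 1.20 ± 0.22 (limma adjusted p = 3.2e-05). Its further kept probe set differed by −1.32 and −0.16. ZNF146, a zinc finger protein, had 1050, 1396 and 1215 at 0, 24 and 48 h with RE-EX1, against 2351, 2728 and 2618 in UNTREATED cells. It was lower by 1.04 ± 0.19 (limma adjusted p = 6.6e-05), with a difference of −1.16 at 0 h and a further probe set at −0.84 and 0.46. NOPCHAP1, a chaperone of snoRNP assembly, had 132.6, 181.7 and 260.7 at 0, 24 and 48 h with RE-EX1, against 279.4, 592.9 and 501.6 in UNTREATED cells. It was lower by 1.33 ± 0.25 (limma adjusted p = 0.00011), with −1.08 at 0 h. The RE-EX1 arrays lay below both UNTREATED arrays in all 3 genes, which their choice by a low p on these same arrays favours. The HZ4 arrays at 24 and 48 h also read below UNTREATED in all 3. They read 412.1 and 601.5 for LSM4, 1971 and 1914 for ZNF146 and 302.3 and 260.4 for NOPCHAP1. ID1, an inhibitor of bHLH factors and a BMP target (uncertain), had 2184, 1674 and 2015 at 0, 24 and 48 h with RE-EX1, against 6527, 4213 and 3209 in UNTREATED cells. Over 24 and 48 h it was lower by 1.00 ± 0.20 (limma adjusted p = 0.0002), and its difference was largest at 0 h (−1.58). ID1 read 2049 and 2542 on the HZ4 arrays of 24 and 48 h, also below UNTREATED. PHB1, the mitochondrial scaffold prohibitin (uncertain), was lower by 1.01 ± 0.19 (limma adjusted p = 0.00013). Its further probe set differed by −0.22 and 0.02, and the call ended with the HZ4 arrays (adjusted p = 0.11). A probe set annotated to the microRNA gene MIR1244-3 and marked for cross-hybridization was lower by 1.15 ± 0.20 (limma adjusted p = 3.7e-06). It had 735.6 and 806.6 at 24 and 48 h with RE-EX1, against 1991 and 1475 in UNTREATED cells. The HZ4 arrays read 692.1 and 704.5, also below UNTREATED.

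RE1 target genes were the first list to be asked about. Of 70 listed, 63 had a probe set that names 1 gene and 19 were kept, so targets below the signal filter are not in these counts. At 24 h 0 of 19 passed 2-fold in either direction, and at 48 h 1 was lower, beside 1.48% and 1.49% of all genes at 24 h and 1.42% lower at 48 h. The list median was 0.37 at 24 h and −0.25 at 48 h, with −0.04 at 0 h, where all genes had 0.04, −0.05 and 0.00. Averaged over all kept probe sets of each gene, the 24 h median was 0.09. Of the 19, 15 were above 0 at 24 h and 12 below 0 at 48 h, beside 4711 and 4775 of all 8704 genes, so the 48 h count is near that of all genes. By limma 0 were higher and 0 lower.

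GAL, the neuropeptide galanin, was the member lower at 48 h. It had 119 and 105.4 with RE-EX1, against 175.4 and 273.5 in UNTREATED cells, differences of −0.56 and −1.38 (limma adjusted p = 0.13), and the HZ4 arrays read 126.7 and 113.7. The 4 signals of 24 and 48 h do not overlap between the groups, in a gene named for its size of difference on these same arrays. INA, the neurofilament protein internexin (uncertain), had 455.3 and 259.7 with RE-EX1, against 250.4 and 148.9 in UNTREATED cells, differences of 0.86 and 0.80 (adjusted p = 0.1). SCG2, the granin secretogranin 2, was at −0.44 and −0.46 after −0.93 at 0 h. CELSR3, the cadherin of axon guidance whose promoter window is printed above, had 100.9 and 86.61 with RE-EX1, against 121.4 and 150.6 in UNTREATED cells, or −0.27 and −0.80 (adjusted p = 0.66). The letters TTCAGCACC stood in the promoters of 1 of 11 kept RE1 genes, 0 of 10 genes higher and 0 of 4 genes lower at both hours.

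NRSF and its corepressors held 32 kept genes of 41. At 24 h 0 passed 2-fold in either direction, and at 48 h 2 were lower (all genes 1.42%), with medians of 0.17 and −0.09 beside 0.06 at 0 h. With the mean of all kept probe sets the 24 h median was 0.01. HDAC1 and HDAC2, the deacetylases of the SIN3 and CoREST complexes, passed neither 2-fold nor limma. HDAC2 had 657.4 and 823.4 with RE-EX1, against 988.4 and 1344 in UNTREATED cells, or −0.59 and −0.71 (limma adjusted p = 0.059). HDAC1 had 684.7 and 938.5 against 1061 and 1401, or −0.63 and −0.58 (0.09). HZ4 arrays read 407.1 and 653.9 for HDAC2 and 768 and 1101 for HDAC1. BTRC, a ubiquitin ligase subunit that degrades NRSF (uncertain), was at 0.73 and 0.41, and CTDSP2, a phosphatase that acts with NRSF (uncertain), at 0.48 and 0.60, with a further probe set at 0.45 and −0.51. SIN3B and HDAC5, chosen after their values were seen, passed 2-fold at 48 h at −1.30 and −1.37, after 0.42 and 0.93 at 24 h. At 0 h SIN3B was at 0.20, while HDAC5 was already at −1.37, with 53.38 against 138.3. The RE-EX1 48 h signal of HDAC5, 38.08, was under the floor.

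NF-kB and cytokine genes, the inflammatory targets of the NF-kB transcription factors, were the list with the lowest median at 24 h among lists of 10 or more kept genes. At 24 h 4 of 24 kept genes were 2-fold lower and 0 higher, beside 1.49% and 1.48% of all genes. At 48 h 0 were lower and 1 was higher, and at 0 h 2 were higher. The median was 0.19 at 0 h, −0.38 at 24 h and −0.16 at 48 h. At both later hours 15 of 24 (62.5%) were below 0, against 29.1% of all genes. By limma 4 of 24 were lower and 0 higher, against 1.32% of all genes that were lower.

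IL6, an inflammatory cytokine, had 112, 150.9 and 162.6 at 0, 24 and 48 h with RE-EX1, against 45.32, 403.9 and 253.8 in UNTREATED cells. It was higher with RE-EX1 at 0 h and lower at both later hours, with differences of 1.16, −1.42 and −0.64 (limma −1.03 ± 0.30, adjusted p = 0.034). CXCL2, a neutrophil chemokine (uncertain), had 507.4, 405.8 and 267.1 with RE-EX1, against 369.6, 1044 and 467.7 in UNTREATED cells, differences of 0.46, −1.36 and −0.81 (−1.09 ± 0.23, 0.00072). LIF, an IL6 family cytokine, had 164.4, 470.1 and 139.5 against 173.3, 840.2 and 269.4, or −0.08, −0.84 and −0.95 (−0.89 ± 0.25, 0.03). These 3 genes changed sign or widened after 0 h, and the HZ4 arrays at 24 and 48 h also read below UNTREATED, at 201 and 151.1 for IL6, 376 and 255.4 for CXCL2 and 710.1 and 192.7 for LIF. With the HZ4 arrays in the fit the adjusted p was 0.16 for IL6, 0.065 for CXCL2 and 0.12 for LIF, so these calls ended.

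CXCL8, a further neutrophil chemokine (uncertain, chosen after its values were seen), had 326.1, 3045 and 1142 at 0, 24 and 48 h with RE-EX1, against 318.3, 5031 and 2176 in UNTREATED cells. It was lower with RE-EX1 over 24 and 48 h (limma adjusted p = 0.0046), a call that ended with the HZ4 arrays (0.058). NFKBIE, an inhibitor of NF-kB, had 123.7 and 62.19 at 24 and 48 h with RE-EX1, against 279.2 and 112.7 in UNTREATED cells, or −1.17 and −0.86 (adjusted p = 0.16). IL1B, the cytokine interleukin 1 beta, chosen after its values were seen, had 245.4 and 246.7 against 565.2 and 334.4, or −1.20 and −0.44. Members that encode NF-kB subunits did not move alike: NFKB1 was at −0.90 and −0.15, NFKB2 (uncertain) at −0.85 and 1.32, REL at −0.44 and 0.59, and RELB at 0.75 and 0.52 after 1.01 at 0 h. NFKBIA and NFKBIZ, feedback regulators of NF-kB read by bright but uncertain probe sets, differed by −0.23 and −0.33 at 24 h and by −0.23 and −0.20 at 48 h. The kB letters stood in 7 of 18 members with a promoter entry (38.9%), and those printed above belong to members at −1.42 (IL6), −1.36 (CXCL2), −0.90 (NFKB1) and −0.33 (NFKBIZ) at 24 h. The others with kB letters were REL (−0.44), NFKBIA (−0.23) and TNFAIP3 (−0.04). At 48 h the 7 stood at −0.64 (IL6), −0.81 (CXCL2), −0.15 (NFKB1), −0.20 (NFKBIZ), 0.59 (REL), −0.23 (NFKBIA) and 0.14 (TNFAIP3). Among all genes 2-fold lower at 24 h, 16 of 104 promoters held the kB letters (15.4%), and among those higher 11 of 107 (10.3%).

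**Figure D4:**
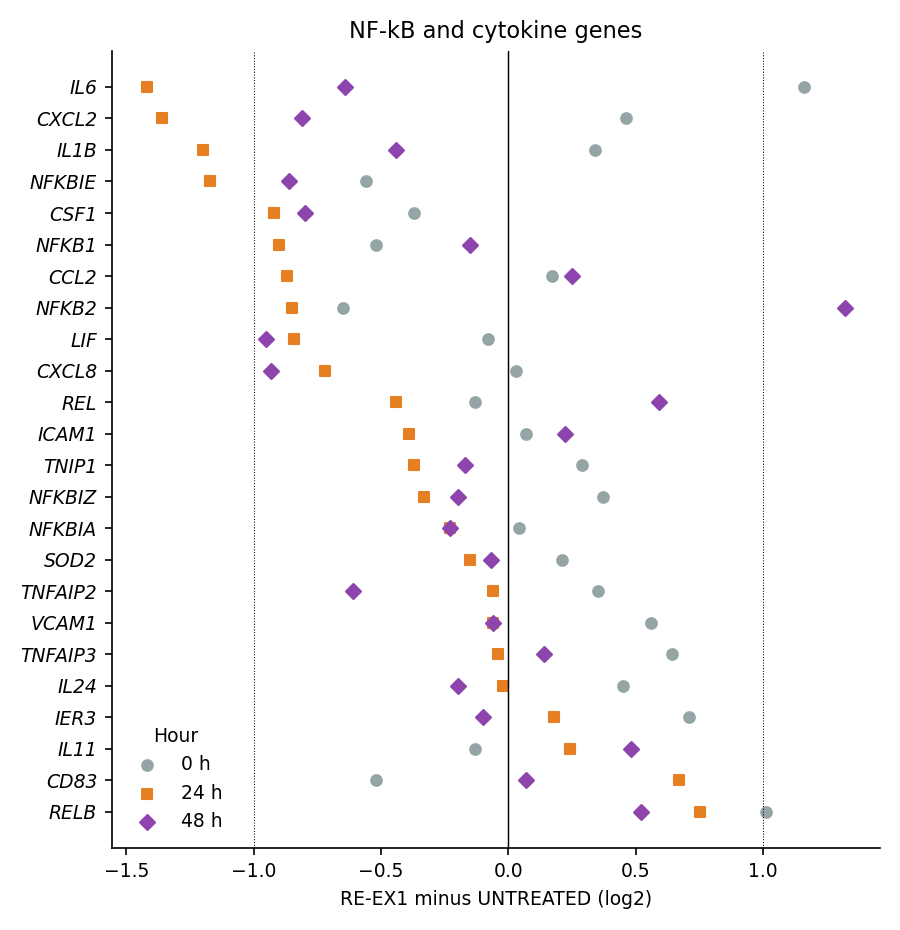
Log2 difference, RE-EX1 minus UNTREATED, of the 24 kept NF-kB and cytokine genes at 0 h (grey circles), 24 h (orange squares) and 48 h (purple diamonds), ordered by the 24 h value, with 2-fold dotted. At 24 h 20 of 24 lie below 0, at 48 h 16, and at 0 h 8.

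Immediate early genes, the fast targets of growth and stress signals, had a median of −0.07 at 24 h and −0.16 at 48 h, beside 0.12 at 0 h. Of 29 kept genes 3 were 2-fold lower at 24 h and 0 higher (all genes 1.49% and 1.48%), and at 48 h 2 were lower and 1 higher (all genes 1.42% and 1.18%). JUNB, an AP-1 subunit, had 231.3, 260.1 and 173 at 0, 24 and 48 h with RE-EX1, against 231.4, 619.5 and 274.1 in UNTREATED cells. It was lower over 24 and 48 h by 0.96 ± 0.27 (limma adjusted p = 0.027, and 0.16 with the HZ4 arrays). IER5, a regulator of heat shock factor 1, had 722.7 and 1175 at 24 and 48 h against 1551 and 1546 and was lower by 0.75 ± 0.20 (0.015 and 0.16). NR4A3, chosen after its values were seen, was at −1.02 and 0.80. CCN2, a matricellular growth factor, was at −0.29 and −1.65 and ARC, a synaptic plasticity protein, at −0.53 and −1.11, both with the RE-EX1 48 h array under the floor. NR4A2 (uncertain, chosen after its values were seen) was at 0.41 and 1.08. At 0 h FOS, JUN and ATF3 were higher with RE-EX1, by 1.34, 1.14 and 1.22 (the last 2 uncertain), and at 24 h they were at −0.04, −0.07 and −0.16. The UNTREATED 0 h signals of FOS (45.59) and ATF3 (33.59) were under the floor, and that of JUN (437.5) was not.

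Type I interferon response genes had medians of −0.16 and −0.02 (−0.09 at 0 h), with 2 of 32 lower at 24 h (all genes 1.49%), 1 lower at 48 h (all genes 1.42%) and 0 higher at either hour. GBP1, an interferon-induced GTPase (uncertain), had 161 and 333.5 with RE-EX1, against 637.2 and 348.2 in UNTREATED cells, so its difference was −1.98 at 24 h and −0.06 at 48 h (limma adjusted p = 0.0094, and 0.26 with the HZ4 arrays). Its further probe sets differed by −1.21 and −0.24 at 24 h. SAMD9, an antiviral factor, had 176.4 and 147.2 against 294.7 and 297.7, or −0.74 and −1.02 (0.11), and its further probe set was at −0.91 and 0.41. IFIT2, chosen after its values were seen, was at −1.19 and 0.48. The interferon letters stood in 19 of 29 promoters of this list (65.5%), and 10 of the 32 members lay above 0 at 24 h and 16 at 48 h.

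Heat shock genes had a median of −0.30 at 24 h and −0.14 at 48 h, after −0.13 at 0 h, with 0 of 16 lower at 24 h and 1 lower at 48 h (all genes 1.42%). With the mean of all kept probe sets the 24 h median was −0.18. HSPE1, the mitochondrial chaperonin HSP10 (uncertain), had 1778 and 2575 with RE-EX1, against 3365 and 3973 in UNTREATED cells. It was lower by 0.77 ± 0.20 (limma adjusted p = 0.012, and 0.079 with the HZ4 arrays). HSF1, the transcription factor of this response, was at −0.46 and −1.13 (0.25). Among 37 genes of the ATF4 and unfolded protein response, with medians of 0.09 and −0.11, 1 was lower at 24 h (all genes 1.49%). This was PDIA4, an endoplasmic reticulum chaperone (uncertain), at −1.23 and −0.52 (0.0021, and 0.094 with the HZ4 arrays), while its further probe set was at 0.15 and −0.48.

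Of 6 kept metallothionein genes, whose proteins bind zinc and copper, MT1G (−1.47) and MT1F (−1.13) were 2-fold lower at 48 h. The other 4, counted after their values were seen, were MT2A (−0.83), MT1E (−0.80), MT1H (−0.54) and MT1X (−0.30), and at 24 h MT1E was at 0.13. MT1G had 884.3 and 263.3 at 24 and 48 h with RE-EX1, against 1376 and 728.4 in UNTREATED cells, and was lower by 1.05 ± 0.21 (limma adjusted p = 0.00025). MT1F had 752.5 and 333.4 against 972.8 and 729.4 (−0.75 ± 0.21, 0.031) and MT2A 4270 and 2775 against 6497 and 4924 (−0.72 ± 0.21, 0.037). The probe sets of all 6 are uncertain, since these genes are near copies of each other, a further MT1F probe set was at 0.25 and −0.75, and the HZ4 arrays at 48 h read 411.5 for MT1G, 474.9 for MT1F and 2853 for MT2A. With the HZ4 arrays in the fit the adjusted p was 0.059, 0.17 and 0.11, so these calls ended. In the NRF2 antioxidant and metallothionein list 0 of 23 passed 2-fold at 24 h and 3 were lower at 48 h (all genes 1.42%), MT1G, MT1F and the pentose phosphate enzyme gene TKT. The list medians were −0.03 and −0.18. TKT (uncertain) was at −0.56 and −1.48 (adjusted p = 0.00031, and 0.071 with the HZ4 arrays), while its further probe set was at −0.15 and −0.06.

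Hypoxia and glycolysis genes had a median of −0.04 at 24 h and −0.25 at 48 h (−0.13 under quantile normalization), with 0 of 32 at 2-fold at 24 h and 2 lower at 48 h (all genes 1.42%). NDRG1, a hypoxia and stress response gene (uncertain), had 349.5, 900.2 and 517.2 at 0, 24 and 48 h with RE-EX1, against 758.7, 1096 and 1725 in UNTREATED cells. Its differences were −1.12, −0.28 and −1.74 (limma adjusted p = 0.00021). ANGPTL4, an inhibitor of lipoprotein lipase (uncertain), had 122.6, 207.5 and 118.6 against 135, 362.4 and 368.3, or −0.14, −0.80 and −1.63 (0.0047). At 48 h the HZ4 arrays were also low in both, at 563.5 and 92.1, and with them in the fit the adjusted p was 0.18 and 0.17.

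Ribosomal and respiratory genes lay lower at 48 h, where the brightest probe sets as a whole did. The 27 ribosomal protein genes had medians of 0.07, −0.00 and −0.48 at 0, 24 and 48 h, with 25 of 27 below 0 at 48 h, beside 4775 of all 8704 genes, and 0 of 27 at 2-fold there. Under quantile normalization, which takes out differences in the upper range between arrays, the 48 h median was −0.06. At 24 h 1 passed 2-fold, RPLP2 (uncertain, chosen after its values were seen), at 1.48 and then −0.74. RPL34, described above, is not in this list. RPS25, of the small subunit (uncertain), was at −0.95 and −0.51 and was called lower (limma adjusted p = 0.035, and 0.16 with the HZ4 arrays). The 30 oxidative phosphorylation genes had medians of −0.10, −0.05 and −0.21, and 18 (60%) were below 0 at both later hours, against 29.1% of all genes. At 48 h their median was −0.13 under quantile normalization. Besides UQCRB, COX8A, a subunit of cytochrome oxidase (uncertain), was called lower, at −0.68 and −0.80 after −0.53 at 0 h (limma adjusted p = 0.015, and 0.094 with the HZ4 arrays).

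**Figure D5:**
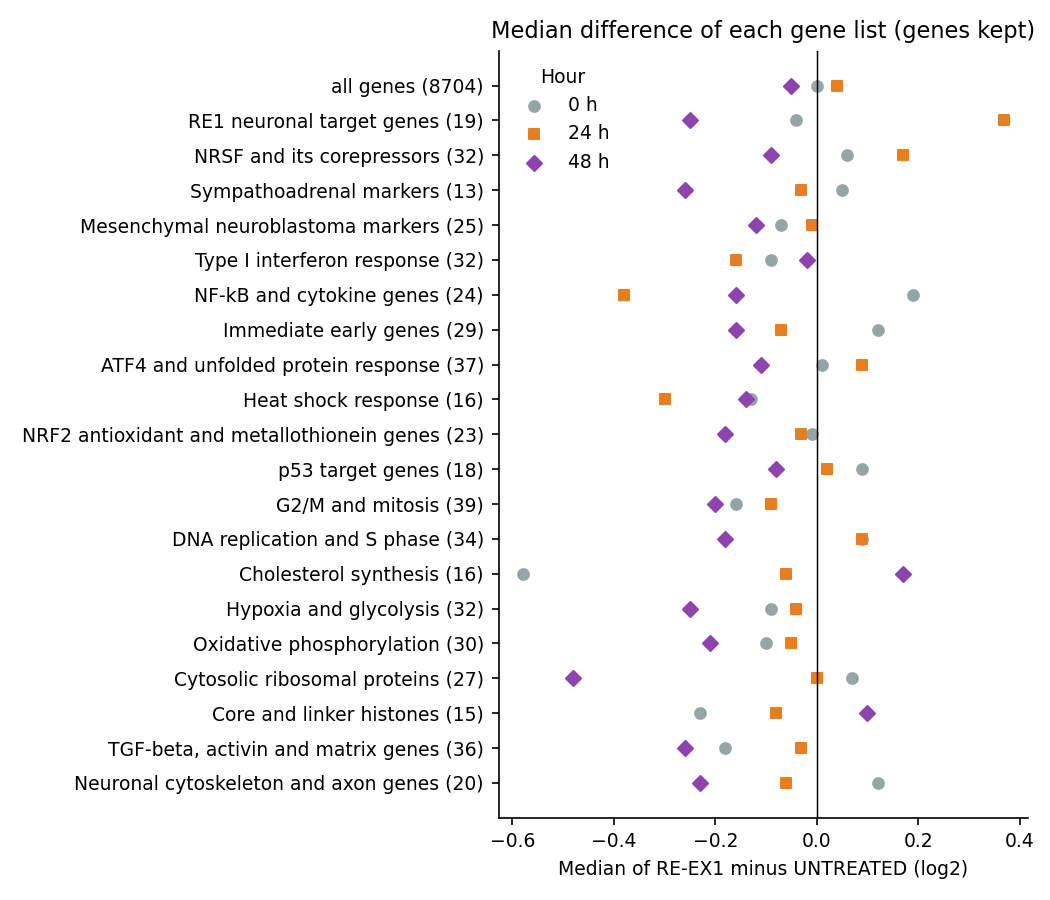
Median log2 difference, RE-EX1 minus UNTREATED, of each gene list with 10 or more kept genes (number kept in brackets) at 0 h (grey circles), 24 h (orange squares) and 48 h (purple diamonds). NF-kB and cytokine genes are lowest at 24 h (−0.38), ribosomal proteins at 48 h (−0.48) and cholesterol synthesis genes at 0 h (−0.58), while RE1 target genes lie at 0.37 at 24 h and −0.25 at 48 h.

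Cell division genes had few members at 2-fold. Of 39 G2/M and mitosis genes 2 were lower at 24 h (all genes 1.49%), the kinesins KIF20A (−1.0 and −0.50) and KIF23 (uncertain, −1.04 and −0.06), and 1 at 48 h, the kinetochore gene NDC80 (−0.55 and −1.04). The medians were −0.16, −0.09 and −0.20 at 0, 24 and 48 h, and 21 of 39 (53.8%) were below 0 at both later hours, against 29.1% of all genes. By limma 0 of 39 passed. Of 34 DNA replication genes 0 passed 2-fold at 24 h and 1 was lower at 48 h, the licensing factor gene CDT1 (uncertain), at −0.06 and −1.41 after 1.10 at 0 h. Of 18 p53 targets 1 was higher at 24 h, the DNA repair gene XPC, chosen after its values were seen, at 1.19 and −0.53. Of 15 histone genes 1 was lower at 48 h, the DNA damage histone gene H2AX (uncertain), at 0.09 and −1.99 (limma adjusted p = 0.032, and 0.31 with the HZ4 arrays).

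Lineage genes also had few members at 2-fold, beside 1.48% of all genes higher and 1.49% lower at 24 h and 1.18% higher and 1.42% lower at 48 h. Below 0 at both hours were 7 of 13 sympathoadrenal markers (53.8%), 9 of 25 mesenchymal markers (36%) and 12 of 20 neuronal cytoskeleton and axon genes (60%), against 29.1% of all genes. Of 13 sympathoadrenal markers 0 passed 2-fold at 24 h and 1 was lower at 48 h, the neural crest factor gene TFAP2B, which had 59.45, 54.37 and 52.49 at 0, 24 and 48 h with RE-EX1, against 159.7, 107.7 and 144.5 in UNTREATED cells. Its difference was −1.43 at 0 h already. At 0 h 3 of the 13 were 2-fold lower (all genes 1.21%), and the list medians were 0.05, −0.03 and −0.26 at 0, 24 and 48 h. Of 25 mesenchymal markers 1 was lower at 24 h, ID1, and 0 at 48 h, with medians of −0.01 and −0.12. Of 20 neuronal cytoskeleton and axon genes 1 was lower at 24 h, ANK3, the ankyrin of the axon initial segment (uncertain), which had 384.7 and 311.3 with RE-EX1, against 911.1 and 447.4 in UNTREATED cells (limma adjusted p = 0.015, and 0.13 with the HZ4 arrays). Its further probe set was at −0.81 and −1.01. TGF-beta, activin and matrix genes held 1 of 36 lower at 24 h, again ID1. At 48 h 2 were higher, the protease inhibitor gene TIMP3 (uncertain, 0.34 and 1.12) and ADAMTS1 (uncertain, −0.47 and 1.24), and 2 lower, TGFBR3 (−0.08 and −1.14, with a further probe set at 0.51 and 0.38) and BMP2 (0.35 and −1.04). ADAMTS1 and BMP2 were chosen after their values were seen, and the 3 further TIMP3 probe sets lay between −1.59 and −0.58 at 24 h and between −0.44 and 0.87 at 48 h. Cholesterol synthesis genes lay low at 0 h, with 4 of 16 at 2-fold lower and a median of −0.58, and had medians of −0.06 at 24 h and 0.17 at 48 h. At 24 h 0 passed 2-fold, and at 48 h the late pathway enzyme genes DHCR7 (uncertain, 0.29 and 1.03) and NSDHL (uncertain, chosen after its values were seen, 0.37 and −1.02) did. The further DHCR7 probe set was at −0.04 and −0.67. FDPS, farnesyl diphosphate synthase, was lower than in UNTREATED cells at each hour, and most so at 0 h. Its differences were −1.42, −0.77 and −0.67 at 0, 24 and 48 h (limma adjusted p = 0.035, and 0.14 with the HZ4 arrays).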

How the data were processed

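Biotin-labelled cRNA from total RNA was hybridised to Affymetrix arrays, per the labels' protocols. The deposited values are linear signal intensities. The submitters' processing notes name GCOS, the authors' array software, with no version or settings. The mean signal without the lowest and highest 2% was 150.02 on every array, so the authors' scaling to 1 target was kept. Of 54675 probe sets 62 are controls. Through the platform annotation 14485 kept probe sets named 1 gene (14480 updated by Entrez ID to RefSeq symbols), 769 several and 1118 none. A gene was read by its kept probe set with the highest mean signal. Signals under 50 were set to 50 and log2 was taken. Each group has 1 array, so differences at an hour have no test. The number of arrays limits the precision, and limma's p-values reflect how these 4 arrays vary, which may be technical. The kB motif search and the count with no array at the floor were added after seeing the data.

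Over both hours, limma 3.58.1 in R 4.3.3 fitted construct and hour to the 4 arrays with a mean-variance trend, two-sided, with Benjamini-Hochberg adjustment over the 16372 kept probe sets. The fit was also run on simulated data with 1 spread for all probe sets, so that run does not check the mean-variance trend. Standard errors lay between 0.19 and 0.45. Genes were named by a rule: REST, up to 15 genes each way at 2-fold in 1 direction at both hours, up to 10 genes with the lowest limma p, up to 5 genes each way with opposite signs at 2-fold, and up to 4 members of each of 25 lists. Others were chosen after their values were seen, namely CXCL8, NAP1L1, genes named to account for counts of 5 or fewer, the 3 genes at 0 h among immediate early genes, the NF-kB subunits and feedback regulators, and the genes just outside 2-fold. The members and lists were chosen with earlier results of these data known. Alternatives covered the floor, the filter, quantile normalization, centring, the trend, the HZ4 arrays, the fold limit and the mean over probe sets of a gene. Pandas 2.3.3, numpy 2.4.6 and matplotlib 3.10.9 were used under Python 3.11.15.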

Additional observations from a re-analysis of the deposited data

Results flagged for a closer look

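For 7 genes the RE-EX1 and UNTREATED arrays differed 2-fold in opposite directions at the 2 hours, each hour with 1 array per group, and this difference between hours was not tested. PRKACA, the catalytic subunit of protein kinase A, was at 2.27 log2 at 24 h and −1.41 at 48 h, with signals of 247.7 and 76.38 with RE-EX1, against 51.21 and 202.9 in UNTREATED cells. The transcription factor genes ZNF335 and ZNF565 were at 1.68 and −1.42 and at 1.45 and −1.15. MAPKBP1, a scaffold of JNK signalling, was at 1.16 and −1.16, and C6orf47 at 1.17 and −1.13. The axon guidance receptor gene ROBO3 was at −1.22 and 1.12, and SPN, the leukocyte sialophorin gene (uncertain), at −1.20 and 1.03. All 7 are dim, with signals of 11.23 to 247.7 on the 4 arrays. They are among 9 probe sets of each direction (0.055% of kept probe sets each).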

How the results depend on the processing

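The counts moved with the treatment of dim probe sets, the fold limit and the limma model. At 24 h, 48 h, both hours and 0 h, 683, 634, 58 and 505 probe sets passed 2-fold, against 400, 288, 24 and 264 with a floor of 100, 323, 234, 20 and 278 with a signal of 100 on all 4 arrays, and 317, 239, 24 and 209 with a signal of 200 on at least 2. Without a filter 896 passed at 0 h, and with no array at the floor, an alternative chosen after seeing the data, 37 passed at both hours. At 1.5-fold 573 passed at both hours and at 3-fold 3. The 304 limma calls became 36 with the HZ4 arrays, 2 without the trend and 3097 without a filter, where most residual variances were exactly 0 and limma warned that the fit is unreliable. Quantile normalization moved the 48 h split to 317 higher and 292 lower. Of 42 alternative counts 23 were within 1.5 times. Of 1702 values of named genes under alternatives, 1621 moved by less than 0.42 (1 SD of the 0 h difference), 81 moved more and 0 reversed. Of 378 list medians 10 changed sign. With a floor of 100, 11 of the 18 genes at both hours fell under 2-fold. No paired analysis was possible because the labels give no replicate numbers. The limma fit matches arrays by hour only. With 1 array in each group no replicate could be left out.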
